A study of Solanum lycopersicum with 24 samples.

Results

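Which transcripts of an unstressed tomato leaf sit on a single ribosome, and which sit on several, was examined by setting the polysome libraries of Control plants against their monosome libraries. The libraries were chosen by their labels alone, which gave 2 polysome and 2 monosome libraries, 4 of the 24 in the series. The transcripts that were higher in polysomes included aquaporins, membrane pumps and transporters, pathogenesis-related proteins, a group of ethylene response factors and the cold regulator CBF1. Higher in monosomes were the jasmonate repressors SLJAZ3 and JAZ2, the jasmonate synthesis gene loxD, and, in the fit of 16 libraries, a larger share of the long non-coding RNAs than of the mRNAs.

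A messenger RNA that is being read carries one or more ribosomes, and a sucrose gradient separates RNAs by that load. The monosome fraction holds RNAs with 1 ribosome, among them messages at the start of their reading, messages with short reading frames and RNAs under surveillance, while the polysome fraction holds messages that many ribosomes read together. In leaves much of the polysome RNA encodes chloroplast proteins that are made in the cytosol, and messages for secreted and membrane proteins are read on ribosomes bound to the endoplasmic reticulum.

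The plants were Solanum lycopersicum of the selection line YaLF, 28 days old and grown at 25 °C by the labels. The study's methods give about that temperature for cultivation but a lower one for Control. Control plants received no cold. By the labels, Hardening meant 5 days at 6 °C, Stress meant cooling to 0 °C for 2 h, and Combo joined the stress to a preceding hardening. For hardening, too, the study's methods give a lower temperature than the labels. Total RNA, monosomes and polysomes of whole leaves were sequenced in each condition as poly(A)-selected stranded libraries, 2 per fraction and condition. The gradient buffer held cycloheximide and chloramphenicol, which stop cytosolic and chloroplast ribosomes respectively. The study speaks of technical repeats but the table's columns name biological replicates, so the p-values measure only the spread between libraries, which may be technical.

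The values are TPM, estimates per unit of transcript length whose total is 1000000 for each library, so they keep no depth and no counting error can be given. A higher value in one fraction means a larger share of that fraction's RNA. It gives neither the number of ribosomes on a molecule nor the amount of RNA in the fraction, and in whole leaves a change in the cells that contribute RNA and a change within those cells cannot be told apart. Of 45845 transcripts, 12922 and 13045 reached 1 TPM in the monosome libraries, 13868 and 13363 in the polysome libraries, and 20551 and 20787 in total RNA. All 17 leaf markers, small subunits of Rubisco and chlorophyll a/b-binding proteins, were present in each Control library, with a summed level of 40600 and 50900 TPM in monosomes, 69100 and 80100 in polysomes and 103000 and 106000 in total RNA. The 9 transcripts for markers of fruit, flower and pollen summed to between 11.9 and 13.0 TPM in the fractions, nearly all of it from LAT61, and 7 or 8 of them were listed at 0.

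Some fraction libraries of the other conditions went against their labels. LE25, a late embryogenesis abundant protein made in the cold, had 1000 and 861 TPM in Hardening total RNA but 3.92 and 2.43 in the polysome libraries labelled Hardening, and 0.925 and 1.43 in Stress total RNA but 583 and 497 in the polysome libraries labelled Stress. In Control it stood at 1.54 and 2.66 TPM in total RNA, 3.2 and 1.46 in monosomes and 0.735 and 1.52 in polysomes. Over all transcripts, the mean Control fractions correlated best with Control total RNA, with r = 0.895 for monosomes and 0.919 for polysomes on the log2 scale, but Stress total RNA came close, at 0.871 and 0.912. CBF1, which the cold induces, was at 88.0 and 67.5 TPM in Control polysomes, at 12.2 and 8.17 in Control total RNA and at 195 and 186 in Stress total RNA. LE25 and the correlations thus set the Control fractions apart from hardened leaves, and less clearly from briefly cooled ones. Results that rest on the libraries labelled Hardening or Stress are given with that limit.

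A few transcripts made up most of each Control fraction. The shares of some of them differed between the fractions, though only XM_010328031.3 was called, and not in every fit. The 10 highest transcripts held 64.4% and 68.9% of the TPM in the monosome libraries, 55.7% and 60.0% in the polysome libraries, but only 14.8% and 15.9% in total RNA. XM_010316700.1, XR_003244938.1 and XR_003244462.1 together took 33.4% and 36.3% of the monosome libraries and 42.0% and 41.8% of the polysome libraries, with fitted differences that did not pass the test. These 3 are not in the names table, and neither are the next 2.

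XM_010328031.3 stood at 14.2% and 15.2% of the monosome libraries and at 2.82% and 5.13% of the polysome libraries. Its log2 difference was -2.01 (limma adjusted p = 0.0302 over 16 libraries, 0.057 over the 4 Control libraries alone). XM_026029149.1 held 6.37% and 7.62% in monosomes against 2.59% and 3.8% in polysomes, and its difference of -1.21 did not pass (limma adjusted p = 0.102). The call of XM_010328031.3 also failed when polysome replicate 1 or either monosome replicate was left out (limma adjusted p from 0.0648 to 0.184). It was lost as well without a filter and with the group weights described below (limma adjusted p = 0.133 and 0.36). Together the pair accounted for 20.5% and 22.8% of the monosome TPM but 5.41% and 8.93% of the polysome TPM. The transcript XR_003246298.1, annotated as ribosomal RNA, lay between 1.79% and 3.84% in the 4 libraries, and the fractions overlapped. Because such shares press on every other value, each library was rescaled by a trimmed mean of log ratios before fractions were compared. The factors of the 4 Control libraries lay close together, from 0.4965 to 0.5627.

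**Figure D1:**
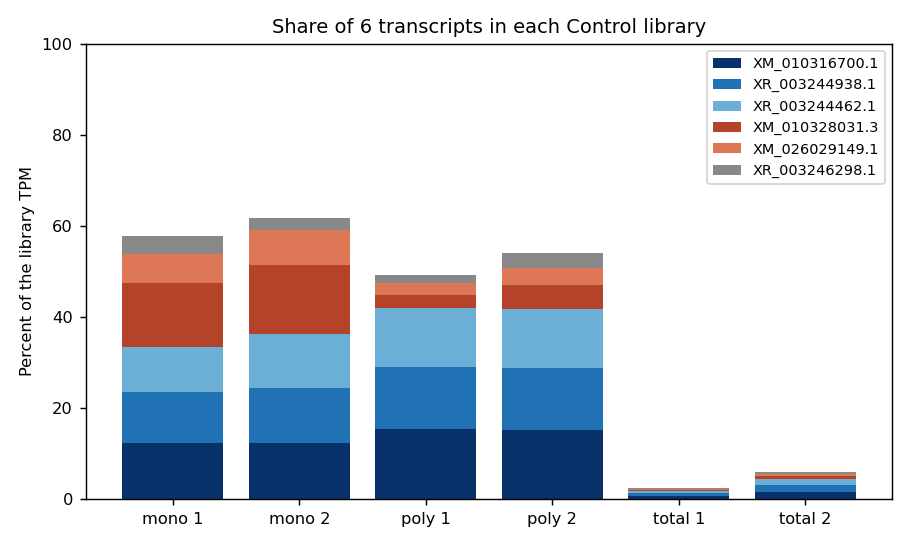
Stacked bars give the percent of TPM (vertical axis) that 6 abundant transcripts took in each Control library, with 2 libraries each of monosomes, polysomes and total RNA. The 6 together held 57.8% and 61.8% of the monosome libraries, 49.2% and 54.0% of the polysome libraries and 2.41% and 5.98% of total RNA, and XM_010328031.3 was the one that differed most between the fractions.

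In the fit of all 16 monosome and polysome libraries, 16837 transcripts were tested, those whose scaled TPM averaged 1 or more in Control. A transcript was called where its log2 difference passed 1 in either direction with a limma adjusted p under 0.05. By this rule 1857 transcripts (11%) were higher in polysomes and 1182 (7.02%) higher in monosomes, and the median log2 difference of all transcripts tested was 0.0902. The Control libraries were more spread than those of the other conditions. The SD of the 2 libraries of a group on the log2 scale, as a root mean square over transcripts, was 0.864 for Control monosomes and 0.663 for Control polysomes, against 0.251 to 0.504 in the other 6 groups.

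A spread shared over 16 libraries is therefore smaller than that of Control itself. The fit of the 4 Control libraries alone tested 13907 transcripts and called 332 (2.39%) higher in polysomes and 160 (1.15%) higher in monosomes. Of these, 326 and 156 were also called over 16 libraries, 482 in all. For each gene list, the count over 16 libraries is given first and then the count over 4. These counts are read against the shares of all transcripts tested, 11% and 7.02% over 16 libraries and 2.39% and 1.15% over 4. A fit over 16 libraries with one weight per group, added after the data were seen, called 327 and 169, all of them among the first calls.

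**Figure D2:**
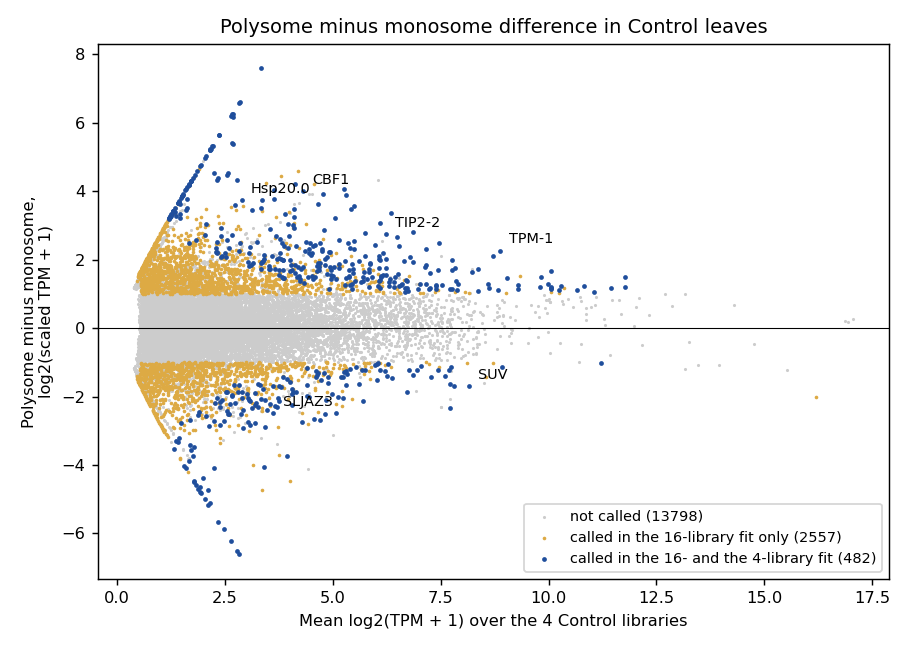
Each point is 1 of 16837 transcripts, with its mean log2(TPM + 1) over the 4 Control libraries on the horizontal axis and its polysome minus monosome difference on the log2(scaled TPM + 1) scale on the vertical axis. Blue points, 326 above and 156 below 0, passed in both the 16-library and the 4-library fit, amber points passed in the 16-library fit only, and grey points were not called.

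Abundant transcripts were called in favour of polysomes more often than scarce ones. Among 551 transcripts with a mean of at least 100 TPM, 15.4% were higher in polysomes and 4.36% in monosomes, and 71 and 17 were called in the 4-library fit. In the class from 1 to 10 TPM, which held 10058 transcripts, the shares were 10.7% and 7.48%, and the 4-library fit called 81 and 60. Of the 2923 below 1 TPM, 277 and 167 were called over 16 libraries. The 4-library fit was scaled within Control, so its minimum of 1 scaled TPM left most of this class untested. Its 0 calls there are therefore not a result.

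Aquaporins, the channels that let water pass membranes, were the list with the highest median. This list was corrected after values had been seen. Of 10 tested members 8 (80.0%) were higher in polysomes and 0 in monosomes, against 11% and 7.02% of all transcripts. Their median log2 difference was 1.99, against 0.0902 for all transcripts. The 4-library fit called 7 of them and the fit with group weights 3. TIP2-2, a channel of the vacuole membrane, had 32.4 and 23.3 TPM in monosomes and 229 and 167 in polysomes. Both polysome libraries lay well above both monosome libraries, and the log2 difference was 2.75 ± 0.26 (SE; limma adjusted p = 7.41e-05, and 0.0191 over 4 libraries).

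PIP1-5, a channel of the plasma membrane, went from 89.5 and 59.4 TPM in monosomes to 485 and 376 in polysomes, a difference of 2.48 ± 0.25. PIP2-4, PIP2-9, PIP2-7, PIP1-3 and PIP1-7 passed in both fits as well, with differences from 1.25 to 2.08. PIP2-1 was uneven, with 0 and 7.43 TPM in monosomes and 19.8 and 13.2 in polysomes, and its call was lost over 4 libraries (limma adjusted p = 0.257). Without monosome replicate 1 its difference fell to 0.98. The small intrinsic proteins SIP2-1 and SIP1-3, which differ from the other aquaporins in sequence and are known from internal membranes, had differences of -0.11 and -0.61 and were not called.

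Proton pumps and nutrient transporters, a list drawn up after values had been seen, showed the same direction. Of 12 tested members 8 (66.7%) were higher in polysomes and 0 in monosomes, against 11% and 7.02% of all transcripts. The median was 1.41, and 3 members were called in the 4-library fit and 2 with group weights. VP1, the proton-pumping pyrophosphatase of the vacuole, had 29.9 and 30.7 TPM in monosomes against 123 and 90.1 in polysomes. Its difference was 1.72 ± 0.22 (limma adjusted p = 0.000456, and 0.0291 over 4 libraries). LHA4, a plasma membrane proton ATPase, had 5.56 and 5.35 TPM against 24.2 and 16.9, and the hexose transporter STP12 had 7.38 and 4.93 against 22.4 and 21.8. For both genes the calls held over 4 libraries but not with group weights (limma adjusted p = 0.124 and 0.119). The ammonium transporters split, since AMT1-3 stood at a difference of 3.07 that was lost over 4 libraries (limma adjusted p = 0.0772), whereas AMT1-1 had a difference of -0.23 and was not called.

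Defence genes made up another list with many calls, likewise corrected after values had been seen. Of 19 tested members 11 (57.9%) were higher in polysomes and 1 (5.26%) in monosomes, against 11% and 7.02% of all transcripts. The median was 1.16, and 8 and 0 were called in the 4-library fit and 6 and 0 with group weights. TPM-1, a thaumatin-like protein, had a mean of 210.0 ± 15.8 TPM (SD, n = 2) in monosomes and stood at 1150 and 964 in polysomes. NP24-I, the tomato osmotin, had 74.7 and 51.3 TPM against 336 and 315. In neither gene did the fractions come near each other, and the differences were 2.27 ± 0.17 and 2.32 ± 0.2 (limma adjusted p = 2.46e-05 and 3.91e-05).

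GluB, a basic beta-glucanase, was listed at 0 in both monosome libraries and had 18.2 and 14.0 TPM in polysomes. The subtilisin-like protease P69B rose from 23.5 and 15.4 TPM in monosomes to 113 and 88.5 in polysomes, and the chitinase CHI9 from 590 and 470 to 1630 and 1470. PR1b1, a member of the PR-1 family and the most abundant of the list, had 1310 and 999 TPM against 3290 and 2410, and all 3 calls held over 4 libraries, while with group weights CHI9 alone of the 3 was called. LAPA1, a leucine aminopeptidase of the wound response, was the member called the other way, with 7.69 and 6.85 TPM in monosomes and 2.85 and 2.73 in polysomes. Its difference of -1.29 ± 0.26 passed over 16 libraries and was lost over 4 (limma adjusted p = 0.0815).

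Enzymes that loosen or remodel the cell wall, also listed after values had been seen, gave 8 polysome-higher and 1 monosome-higher call among 25 tested. These were 32.0% and 4.0%, against 11% and 7.02% of all transcripts, and the list median was 0.84. The 4-library fit called 3 of them, tXET-B1, tXET-B2 and EXLA1. The xyloglucan endotransglucosylase tXET-B1 had 20.8 and 12.6 TPM in monosomes, 99.0 and 95.0 in polysomes and only 29.8 and 28.5 in total RNA. EXLA1, an expansin-like protein, had 8.5 and 10.3 TPM against 59.8 and 49.9, a difference of 2.42 ± 0.21. The 2 matrix metalloproteinases MMP1 and MMP2, proteases of the cell surface named after their values were seen, had differences of 2.88 ± 0.26 and 2.93 ± 0.32. MMP1 stood at 10.5 and 8.15 TPM in monosomes and 87.8 and 62.8 in polysomes, and MMP2 at 6.61 and 4.21 against 49.3 and 42.3. In the list of small secreted and metal-binding proteins 2 of 5 (40.0%) were polysome-higher, against 11% of all transcripts. The lipid transfer protein ltpg1 (170 and 162 TPM against 633 and 464) kept its call over 4 libraries and lost it with group weights (limma adjusted p = 0.0986).

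Proteins of the photosynthetic antenna and photosystems leaned to polysomes by less than 1 log2 unit for most members. Of 20 tested, 18 had a difference above 0, 6 were called higher in polysomes and 0 in monosomes, and the median was 0.87. The 4-library fit called 4 of them, and the fit with group weights 1. PSBS, which helps to dissipate excess light as heat, had 169 and 187 TPM in monosomes and 632 and 592 in polysomes, and its difference of 1.72 ± 0.27 was the highest of the list but was not called with group weights (limma adjusted p = 0.0909). LHCP, a chlorophyll-binding antenna protein, stood at 851 and 737 TPM against 2110 and 1810, with a difference of 1.24 ± 0.16. CAB13 and CAB12, antenna proteins of the same family, had differences of -0.49 and -0.55 and were not called. Their 2 polysome libraries lay below their 2 monosome libraries, an order that with so few libraries is not read as a difference.

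Rubisco small subunits did not pass the fold threshold. RBCS4, the most abundant transcript of total RNA, held 18300 and 13600 TPM in monosomes, 28700 and 23600 in polysomes and 39300 and 39100 in total RNA. Its difference was 0.66 ± 0.27 (limma adjusted p = 0.0966). The subunit rbcS1 had a difference of 0.62 and the Calvin cycle enzyme SBPASE one of 0.58, and 0 of the 3 tested members were called. Members of these families are alike in sequence, so the division of reads between them is uncertain.

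**Figure D3:**
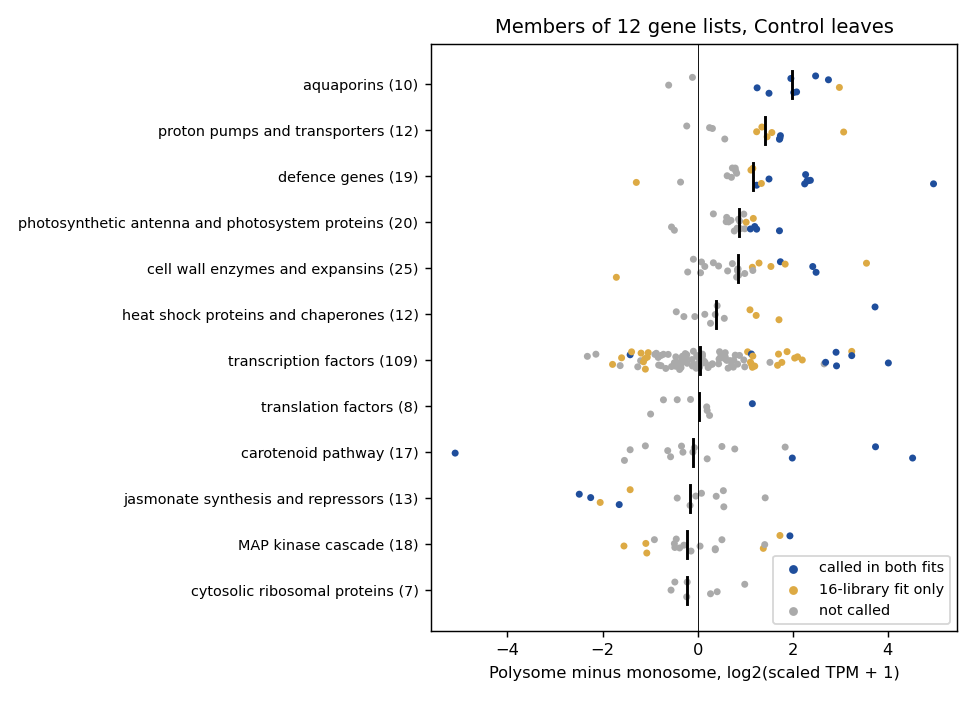
Each point is a tested member of 1 of 12 gene lists (number tested in brackets), placed by its polysome minus monosome difference on the log2(scaled TPM + 1) scale, with a black bar at the list median. Points are blue where called in both the 16-library and 4-library fits, amber where called over 16 libraries only and grey where not called. Medians run from 1.99 for aquaporins to -0.22 for cytosolic ribosomal proteins.

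The lists of the translation and protein turnover machinery were short, and their counts are read against the 11% and 7.02% of all transcripts called towards polysomes and monosomes. Among 7 cytosolic ribosomal proteins 0 were called in either direction, and their median was -0.22. RPL8 had the highest value, with 77.3 and 56.6 TPM in monosomes, 149 and 126 in polysomes and a difference of 0.99, just under the fold threshold. Among 8 translation factors 1 was polysome-higher and 0 were monosome-higher, with a median of 0.02. That one was eIF-5A3, a factor that helps ribosomes through difficult peptide bonds, with 113 and 107 TPM in monosomes and 287 and 228 in polysomes (difference 1.15 ± 0.22, limma adjusted p = 0.00367, 0.0354 over 4 libraries and 0.128 with group weights). Its relatives eIF-5A1 and eIF-5A4 lay on the other side, at -0.99 and -0.72, and did not pass the fold threshold. The fractions did not overlap in any of these 3 genes. Ubiquitin and proteasome genes gave 0 and 1 calls among 10 tested, and of 4 histones H2B-3 alone was called, with 53.3 and 41.0 TPM against 139 and 127.

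Heat shock proteins were divided. Of 12 tested, 4 (33.3%) were polysome-higher and 0 monosome-higher, against 11% and 7.02% of all transcripts. Only Hsp20.0 was called over 4 libraries. This small heat shock protein had 0.931 and 1.6 TPM in monosomes, 24.4 and 22.9 in polysomes and 26.7 and 24.0 in total RNA. Its log2 difference was 3.73 ± 0.2 (limma adjusted p = 3.94e-06, and 0.0208 over 4 libraries). Hsp90-1 (54.6 and 35.4 TPM against 101 and 96.0) and the endoplasmic reticulum chaperone BiP/grp78 (5.99 and 6.08 against 16.6 and 14.5) were called over 16 libraries, and both calls were lost over 4. The abundant HSC80 had a difference of 0.15 and was not called.

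Transcription factors, listed by symbol and with the list corrected after values were seen, were called in both directions, and more often towards polysomes. Of 109 tested, 20 (18.3%) were polysome-higher and 10 (9.17%) monosome-higher, against 11% and 7.02% of all transcripts, and the median was 0.04. The 4-library fit called 6 and 2, and the fit with group weights 8 and 0. CBF1, the activator that switches on the cold response, had the highest difference of the list. It stood at 4.32 and 3.91 TPM in monosomes and at 88.0 and 67.5 in polysomes, in leaves whose total RNA held 12.2 and 8.17. The difference was 4.01 ± 0.29 (limma adjusted p = 2.34e-05, and 0.0185 over 4 libraries), and no monosome or total RNA library of Control reached the level of either polysome library.

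The other 5 members of this list called higher in polysomes over 4 libraries were all ethylene response factors, ERF-B5, ERF-D4, ERF5, ERF-B13 and ERF-F4. The list was drawn by symbol and is not complete. It leaves out TDR6, a MADS-box gene described below. It also leaves out CZFP1 and JA2, which were called in both fits with differences of 2.67 and -1.67. ERF-B5 had 4.59 and 4.84 TPM in monosomes against 55.0 and 47.0 in polysomes, a difference of 3.24 ± 0.27. ERF-B13 had 4.24 and 4.07 TPM against 33.0 and 28.9, and ERF5 had 5.17 and 2.2 against 32.0 and 28.3. As in CBF1, a member of the same AP2/ERF family, the polysome values of these 3 genes exceeded total RNA, which held 32.4 and 31.1 TPM of ERF-B5, 12.6 and 11.6 of ERF-B13 and 23.0 and 18.1 of ERF5. ERF-D4 had 13.8 and 11.2 TPM in polysomes against 4.11 and 5.04 in total RNA. ERF-F4 had 328 and 332 TPM in polysomes and 405 and 384 in total RNA. These are TPM as deposited, with no rescaling between polysomes and total RNA. The 6 abundant transcripts held 49.2% and 54.0% of the polysome libraries but 2.41% and 5.98% of total RNA. The lower polysome value of ERF-F4 is therefore not read as a reversed order. IAA4, an auxin repressor, had 5.9 and 1.8 TPM in monosomes and 32.3 and 42.9 in polysomes, and its difference of 3.24 ± 0.43 missed the threshold over 4 libraries (limma adjusted p = 0.0501). In the other direction NAC1 was called over 16 and over 4 libraries, though not with group weights (limma adjusted p = 0.0746), with 39.6 and 35.7 TPM in monosomes against 17.1 and 12.1 in polysomes. NACMTF2, a further NAC factor, was called only over 4 libraries. Of 3 genes whose plant relatives are known for regulatory upstream reading frames, GGP1, GGP2 and SAMDC, 0 were called, and their differences lay between 0.46 and 0.75.

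Some jasmonate genes were higher in monosomes, and most did not pass the test. The list of synthesis enzymes and repressors was drawn up after values had been seen. Of 13 tested, 0 were polysome-higher and 5 monosome-higher, where 11% and 7.02% of all transcripts were, the median was -0.16, and 5 had a difference above 0. Of these 5, 3 were called over 4 libraries and 2 with group weights. SLJAZ3 and JAZ2 encode JAZ proteins, which hold back jasmonate-responsive transcription until the hormone triggers their breakdown. SLJAZ3 had 28.0 and 25.5 TPM in monosomes and 4.79 and 4.3 in polysomes, a difference of -2.49 ± 0.2 (limma adjusted p = 2.99e-05, and 0.0213 over 4 libraries). JAZ2 had 19.0 and 16.9 TPM against 4.52 and 2.71, a difference of -2.25 ± 0.34. With group weights SLJAZ3 was called and JAZ2 was not (limma adjusted p = 0.113).

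The lipoxygenase loxD, an early enzyme of jasmonate synthesis, had 18.9 and 13.3 TPM in monosomes and 5.53 and 4.34 in polysomes, with a difference of -1.65 ± 0.19. The allene oxide synthase AOS, which acts next in the pathway, had 6.33 and 5.41 TPM against 0.676 and 1.57, but its difference of -2.05 was lost over 4 libraries (limma adjusted p = 0.0772). The receptor COI1 and the later enzyme OPR3 had differences of 0.55 and -0.04 and were not called. Of 18 members of the MAP kinase cascade, 3 were called in each direction (16.7%, against 11% and 7.02% of all transcripts), which for so short a list is not read as a result about the cascade. MKK2 was the only one that passed over 4 libraries (5.45 and 3.47 TPM in monosomes, 22.3 and 16.2 in polysomes), while MAPKKKalpha lay on the monosome side (16.9 and 16.5 against 7.07 and 4.46) with a limma adjusted p of 0.0537 over 4 libraries.

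Of 1333 tested transcripts with a gene symbol, some were kept for naming. These had a mean of at least 10 TPM, fractions that did not overlap and a call over 16 libraries. There were 98 higher in polysomes and 34 in monosomes. Because of these filters the counts are not compared with the 11% and 7.02% of all transcripts. Of the 10 with the largest and the 10 with the lowest difference, 17 were also called over 4 libraries and 13 with group weights. The exceptions over 4 libraries were XTH7, IAA4 and ACI19, whose limma adjusted p values were 0.0869, 0.0501 and 0.0556. With group weights the calls of MIR172a, both ypt2 transcripts, CCD1B, NAOD, JAZ2 and CHRDi were lost, with limma adjusted p from 0.0572 to 0.411. On the polysome side, the precursors of the microRNAs MIR6024 and MIR172a were listed at 0 in both monosome libraries, with 91.8 and 26.7 TPM and 26.5 and 60.3 TPM in polysomes. Over all 17 microRNA precursors tested, 4 (23.5%) were polysome-higher and 1 (5.88%) monosome-higher, against 11% and 7.02% of all transcripts. Of the 17, 8 were listed at 0 in 1 of the 2 libraries of a fraction and above 0 in the other.

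On the monosome side, TDR6, a MADS-box gene of floral identity, had 18.9 and 17.2 TPM in monosomes and 2.59 and 1.58 in polysomes. Its difference was -2.92 ± 0.25 (limma adjusted p = 3.91e-05, and 0.0244 over 4 libraries). SUV was the most abundant of these transcripts, with 609 and 414 TPM against 189 and 137 and a difference of -1.70 ± 0.23. NAOD had 57.7 and 103 TPM against 15.1 and 12.7, and CHRDi 25.1 and 24.6 against 6.35 and 5.42. The protein phosphatase PP2C-2 stood at 20.6 and 19.3 TPM in monosomes and 6.96 and 5.41 in polysomes, and ACI19 at 17.9 and 17.8 against 3.48 and 5.73. TPSI1, a long non-coding RNA known for its response to phosphate starvation, had 24.5 and 27.0 TPM against 6.73 and 3.84, and its difference of -2.28 ± 0.31 held over 4 libraries (limma adjusted p = 0.0335).

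**Figure D4:**
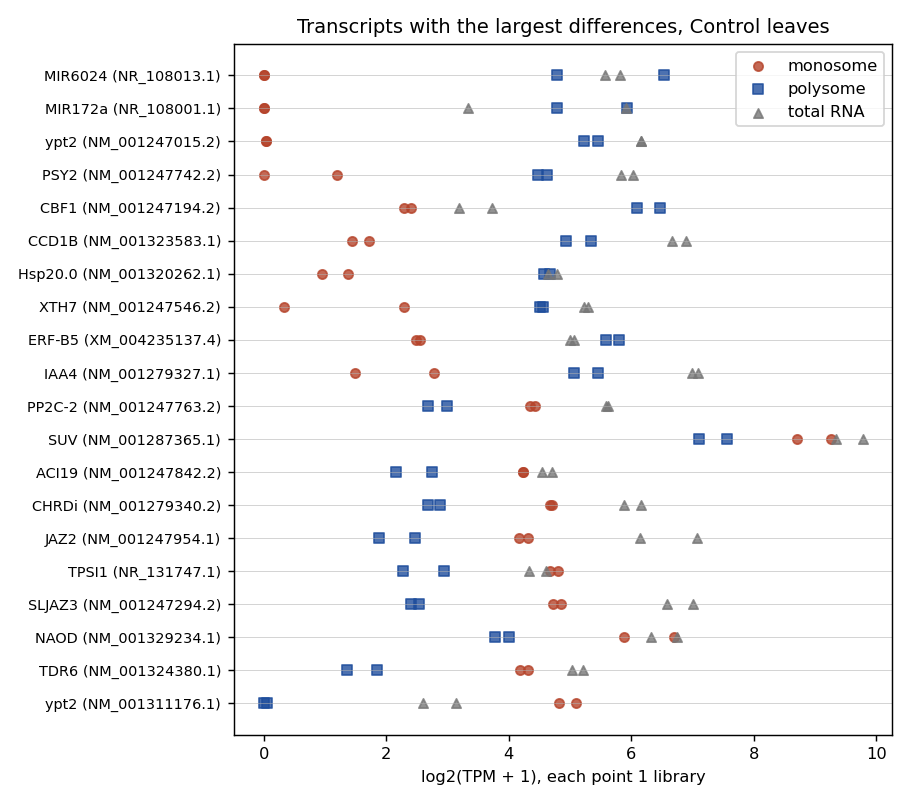
Each point is the log2(TPM + 1) of 1 Control library (circles monosome, squares polysome, triangles total RNA) for the 10 transcripts with the largest and the 10 with the lowest difference. The upper 10, from MIR6024 to IAA4, have both polysome libraries to the right of both monosome libraries, and the lower 10, from PP2C-2 to ypt2, have the reverse order. This separation was required by the rule that chose the transcripts.

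Over 16 libraries, non-coding RNAs were called on the monosome side more often than mRNAs. Of 1085 tested RNAs with a non-coding accession, 7.37% were higher in polysomes and 14.7% in monosomes, with a median difference of -0.31, while the 15752 mRNAs had 11.3%, 6.49% and 0.11. Over 4 libraries 20 non-coding RNAs were called higher in polysomes and 15 in monosomes, and 312 and 145 mRNAs. Long non-coding RNAs gave 27 polysome-higher and 85 monosome-higher calls among 427 (6.32% and 19.9%), with a median of -0.44, and over 4 libraries 4 and 8. The typical level also differed, with a median of 1.77 TPM for non-coding RNAs and 3.23 for mRNAs, and its part in the result was not tested. Small nucleolar RNAs, which guide the modification of ribosomal RNA in the nucleolus, had a median on the polysome side, 1.80 over 63 tested. Over 16 libraries 6 (9.52%) were polysome-higher and 3 (4.76%) monosome-higher, against 11% and 7.02% of all transcripts. These shares did not exceed those of all transcripts, so the median is not read as a result about the class. Over 4 libraries the counts were 7 and 1, where 2.39% and 1.15% of all transcripts were called.

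For some genes the 2 fractions held different transcript models. Of 1225 genes with at least 2 tested transcripts, 86 (7.02%) had one transcript called higher in polysomes and another called higher in monosomes, and 12 had both calls in the 4-library fit. When the transcripts of a gene were summed, 71 of the 86 were not called. The small GTPase gene ypt2, of a family that directs vesicle traffic, was the extreme case. Its transcript NM_001247015.2 had 0.031 and 0.0256 TPM in monosomes and 42.8 and 36.5 in polysomes, while NM_001311176.1 had 33.2 and 27.2 in monosomes and 0 and 0.0393 in polysomes. Both calls held over 4 libraries (limma adjusted p = 0.0185 for each), and the sum over the gene differed by 0.31 (limma adjusted p = 0.274). Over 16 libraries, the call of NM_001311176.1 was lost whichever Control library was left out (limma adjusted p from 0.0737 to 0.107).

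PSY2, a phytoene synthase that opens the carotenoid pathway, behaved alike. NM_001247742.2 had 0 and 1.29 TPM in monosomes and 23.8 and 21.4 in polysomes, and XM_019211975.2 had 19.3 and 17.0 against 0.00037 and 0.0674. The gene sum differed by 0.19 (limma adjusted p = 0.524). SK showed the pattern at a lower level, with NM_001247183.1 at 3.63 and 3.25 TPM in monosomes and listed at 0 in polysomes, and XM_010321392.3 at 0.0293 and 0.0265 against 5.07 and 5.62. The carotenoid cleavage gene CCD1B had 1 transcript, NM_001323583.1, that was polysome-higher (2.28 and 1.73 TPM against 29.6 and 39.7), whereas its gene sum differed by -0.36 (limma adjusted p = 0.183). Transcripts of a gene share most of their sequence, and the TPM of such a pair depend on how shared reads were divided between them.

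The level in total RNA was also compared. The median total RNA level was 13.3 TPM for polysome-higher transcripts, 9.67 for monosome-higher ones and 10.7 for all tested. Under 1 TPM in total RNA were 2.05%, 7.87% and 4.78% of the 3 sets.

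The same difference in the other conditions was measured in other libraries. In Combo, 65 transcripts (0.386%) were polysome-higher and 9 (0.0535%) monosome-higher over all transcripts tested. The 326 polysome-higher transcripts of Control had a median Combo difference of 0.11, with 58.6% above 0 against 48.8% of all transcripts tested, and 14 of them were called polysome-higher there. For the 156 monosome-higher transcripts the Combo median was 0.09, and 42.9% lay below 0, against 50.7% of all transcripts tested. The test of the difference itself called 983 transcripts (5.84%) with a larger value in Control than in Combo and 738 (4.38%) with a smaller one. These 1721 in all became 472 with one weight per group, 804 without the libraries labelled Hardening and Stress, and 2964 or 3076 without Control monosome replicate 1 or 2.

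The libraries labelled Hardening, whose LE25 level was that of leaves without hardening, gave differences in the Control direction for most of these transcripts. There 80.1% of the 326 lay above 0, with a median of 1.06 and 148 called polysome-higher, against 55.5% above 0 and 1318 calls (7.83%) over all transcripts. Of the 156, 85.3% lay below 0, against 44.5% of all transcripts. Their median was -0.96, and 67 were called monosome-higher, where 570 (3.39%) of all transcripts were. The libraries labelled Stress, whose LE25 level was that of hardened leaves, leaned the other way. There 29.1% of the 326 lay above 0, against 46.4% of all transcripts, at a median of -0.51. Of the 156, 27.6% lay below 0, against 53.6% of all transcripts, at a median of 0.47. Polysome-higher and monosome-higher calls there were 18 and 81 among the 326, and 31 and 3 among the 156. Over all transcripts 438 (2.6%) were called polysome-higher and 630 (3.74%) monosome-higher there. By the test of the difference itself, Control lay above the libraries labelled Hardening for 678 transcripts (4.03%) and below them for 491 (2.92%), and above those labelled Stress for 2369 (14.1%) and below them for 1410 (8.37%). These counts, 1169 and 3779 in all, fell to 57 and 1570 with one weight per group, and the first rose to 2582 or 2354 without Control monosome replicate 1 or 2.

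**Figure D5:**
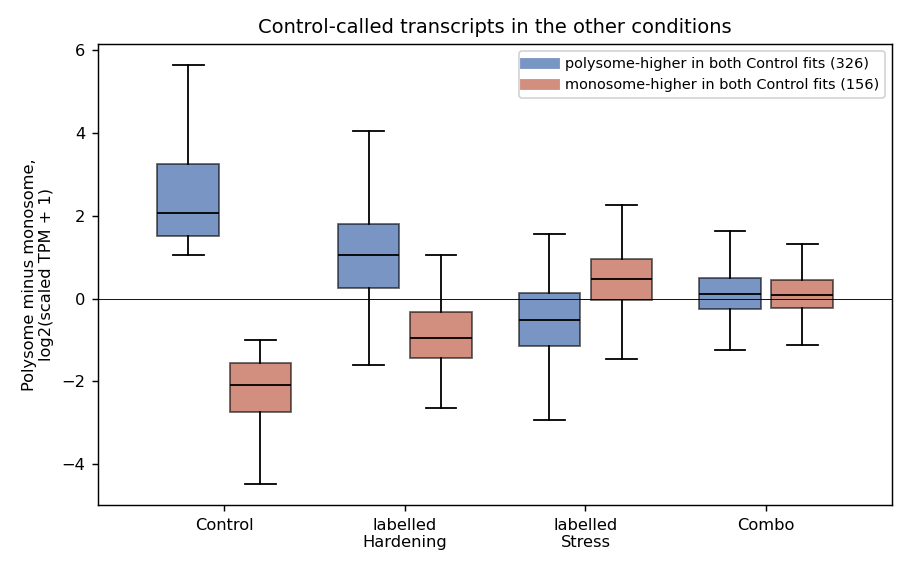
Boxes show the polysome minus monosome difference (log2(scaled TPM + 1), vertical axis) in each condition for the 326 polysome-higher (blue) and 156 monosome-higher (red) transcripts of Control, with the median as a line, the quartiles as the box and whiskers to 1.5 times the box length. The Control boxes are separated by the choice of the transcripts. In the libraries labelled Hardening the medians are 1.06 and -0.96, in those labelled Stress -0.51 and 0.47, and in Combo 0.11 and 0.09.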

How the data were processed

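The authors trimmed and filtered the reads, quantified them with kallisto on the SL3.1 transcriptome and deposited TPM, estimates per unit of transcript length that sum to 1000000 per library. Since TPM are not counts, no count model was used. Libraries were rescaled here by an unweighted trimmed mean of log ratios (30% of log ratios and 5% of mean levels at each end, transcripts with at least 1 TPM in both libraries). Values were transformed to log2(scaled TPM + 1), so differences of low transcripts are understated. Tests were limited to transcripts averaging 1 scaled TPM or more in the 4 Control libraries and used limma (version 3.58.1, R 4.3.3) with 16 libraries and a mean for each group (empirical Bayes with a trend, residual degrees of freedom 8), with Benjamini-Hochberg adjustment and a log2 cutoff of 1 at an adjusted p of 0.05. Without adjustment 2186 and 1486 transcripts passed.

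Gene names came from a RefSeq table of assembly SLM_r2.1, matched by accession without version for 34881 of 45845 transcripts. No coordinates or sequences are printed. Named transcripts were those with a symbol, a mean of at least 10 TPM and no overlap between fractions, 10 called with the largest and 10 with the lowest difference, the 2 highest and 2 lowest members of each list, the 5 most abundant transcripts per fraction and cold reporters. Other list members, MMP1, MMP2 and the genes with opposed transcripts were named after their values were seen. The comparison, the libraries and the 22 gene lists were chosen with earlier results of these data known. Of the lists, 5 were added and 4 corrected after values were seen. The corrected ones were transcription factors, genes with regulatory upstream reading frames, defence genes and aquaporins.

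Both fits were tested on simulated data with 200 changed transcripts. Each was given a log2 difference of 2, and they were drawn only from the more abundant transcripts. The fit of 16 libraries recovered 188 of them and that of 4 libraries 148, and 14 and 11 unchanged transcripts were called. The recovery of smaller differences or of scarcer transcripts was not simulated. Each transcript had the same spread in all simulated libraries. The test therefore cannot show how the 16-library fit behaves with the larger spread of Control. Alternatives covered the scaling, pseudocount, filter, libraries in the fit, replicate block, dominant transcripts, gene sums and each omitted replicate. Chosen after seeing the data were fits without the libraries labelled Hardening and Stress, without non-coding transcripts and with one weight per group. Other steps used Python 3.11.15 with pandas 2.3.3, and figures matplotlib 3.10.9.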

Additional observations from a re-analysis of the deposited data

Results flagged for a closer look

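The polysome to monosome difference of many transcripts was not the same in Control as in the other conditions, by the interaction term of limma over 16 libraries at the same thresholds. Against Combo 1721 transcripts differed. Against the libraries labelled Hardening 1169 differed, and against those labelled Stress 3779, where the labels went against the markers of total RNA. These counts depended on the spread assumed for Control. With one weight per group they were 472, 57 and 1570, and without Control monosome replicate 1 or 2 the count against Combo was 2964 or 3076.

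Of the 20 transcripts with the largest and lowest differences in Control, 18 also differed from Combo. They were chosen for their Control differences, which are part of this comparison, and few transcripts were called in Combo, so the number and the signs were largely fixed by the choice and are given as a description. On the polysome side, the Control minus Combo difference on the log2(scaled TPM + 1) scale was 6.09 for ypt2 (NM_001247015.2), 4.30 for PSY2, 4.25 for CCD1B, 3.56 for Hsp20.0, 3.38 for XTH7, 3.29 for IAA4, 2.57 for CBF1 and 2.55 for ERF-B5. For MIR6024 it was 6.96, a value set by the pseudocount because both Control monosome libraries were listed at 0. On the monosome side it was -3.33 for SLJAZ3, -3.31 for JAZ2, -3.21 for TDR6, -3.11 for NAOD, -2.53 for CHRDi, -2.15 for ACI19, -2.13 for TPSI1, -2.02 for PP2C-2 and -1.86 for SUV. CBF1 had 14.7 and 6.01 TPM in Combo polysomes and 2.09 and 2.83 in Combo monosomes.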

How the results depend on the processing

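The polysome-higher count of 1857 fell to 745 with a minimum of 10 TPM, 332 over the 4 Control libraries and 327 with one weight per group. The monosome-higher count of 1182 fell to 672 with TPM as deposited, 465 with a minimum of 10 TPM, 160 over 4 libraries, 747 without the libraries labelled Hardening and Stress and 169 with group weights. A stricter minimum tests fewer transcripts. The 4-library fit tested 13907 transcripts with 2 residual degrees of freedom, against 16837 and 8 over 16 libraries. The parts of these settings and of the larger Control spread in the lower counts were not tested. Leaving out 1 Control library gave 1653 to 2607 and 1181 to 1668. The difference from Combo (1721) was 1098 with TPM as deposited, 1023 with a minimum of 10 TPM, 804 without the Hardening and Stress labels, 472 with group weights and 1571 to 3076 with 1 library left out. Against Hardening (1169) it was 57 with group weights and 1103 to 2582 with 1 library left out, and against Stress (3779) 1909 with a minimum of 10 TPM, 1570 with group weights and 3520 to 5008. The median of non-coding RNAs minus that of mRNAs, -0.418, was -0.381 with TPM as deposited, -0.481 with a pseudocount of 0.1, 0 without a filter, where most transcripts are near 0 in both fractions, -0.476 with a minimum of 10 TPM, -0.379 over 4 libraries and -0.526 to -0.389 with 1 library left out. Of 22 gene lists, 12 had a median above that of all transcripts.

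Replicate numbers did not pair the libraries. Deviations of same-numbered monosome and polysome libraries correlated at 0.0364 in Control, 0.0999 in Hardening, 0.129 in Stress and 0.0356 in Combo, and a replicate block gave 1835 and 1160 calls and 1542 against Combo. As sums over a gene, the transcripts CCD1B (NM_001323583.1), ypt2 (NM_001311176.1) and PSY2 (XM_019211975.2) turned direction, to -0.36, 0.31 and 0.19. Over 93 named transcripts and all alternatives, 1340 results stayed on their side of the threshold, 82 lost and 27 gained a call. Protein length was not run, since no protein table was used, and the gene sums were not run for coding classes and lists. TPM keep no depth, so precision rests on 2 libraries per group, which may be technical repeats.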
